A study of Mus musculus with 27 samples.

Results

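The 8 genes described here mark goblet cells, the mucus-secreting cells of the intestinal epithelium. They were chosen by name (Muc2, Tff3, Fcgbp, Zg16, Agr2, Spdef, Atoh1 and Spink4) out of the 22524 genes counted in every library, and each was matched to 1 Ensembl gene by its symbol. Jejunal organoids, which are epithelial structures grown from crypts in Matrigel and Intesticult medium, came from 9 male C57BL/6 mice aged 8 to 12 weeks, 3 each from the specific pathogen-free (SPF) facilities SR and SE and the germ-free facility GF. Mice of 1 facility were cohoused littermates, and each culture (passage 5 to 8) is 1 mouse. Cultures Z908, Z909 and Z910 came from SR, Z911, Z912 and Z913 from SE, and Z917, Z918 and Z919 from GF. Every organoid culture gave 1 library labelled untreated (medium exchange) and 1 labelled TNF-treated (5 ng/mL murine TNF, 8 hr). The same 2 labels were given to libraries from each of 3 numbered cultures of m-ICc12 cells (M1 to M3), an immortalised epithelial line from mouse small intestine, and mouse embryonic fibroblasts (MEFs) gave 3 untreated libraries. Nothing in the labels says that the 3 m-ICc12 or the 3 MEF samples were independent lines, so their spread may be technical.

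Goblet cells arise from a secretory progenitor in the crypt, where Atoh1 commits cells to the secretory fate against Notch signalling and Spdef promotes goblet cell maturation. Mature goblet cells store mucus in granules: Muc2 is the gel-forming mucin, Fcgbp a large mucus protein bound to it, Zg16 a lectin that binds bacteria, Tff3 a trefoil peptide of mucosal repair and Spink4 a small secreted protein with a protease inhibitor domain. Agr2 is a protein disulfide isomerase of the endoplasmic reticulum needed for Muc2 production. The libraries are of bulk RNA, so that fewer goblet cells and less RNA per goblet cell cannot be told apart in any comparison.

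On the mouse build GRCm38, Muc2 spans chr7:141690340-141754693 and Fcgbp chr7:28071236-28120862, both on the plus strand. Zg16 lies on the minus strand at chr7:127050156-127087328, where 2 noncoding genes of the opposite strand, Gm44939 and Gm22747, overlap it. Tff3 (chr17:31125306-31129646) and Spdef (chr17:27714352-27728955) are on the minus strand, and Agr2 (chr12:35992907-36004087), Atoh1 (chr6:64729125-64731245) and Spink4 (chr4:40920052-40931395) on the plus strand. The merged exons measure 10497 bp in Fcgbp and 7127 bp in Muc2, but only 493 bp in Tff3 and 477 bp in Spink4.

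RefSeq (GRCm38.p6) gave an upstream sequence for 5 of the 8 genes, namely Muc2, Fcgbp, Agr2, Spdef and Atoh1. The 250 bases before the start are shown for Muc2, Fcgbp and Agr2, the mucin, its partner and its folding enzyme, because levels of these genes differed between cultures as described further on. Capitals mark CANNTG, the E-box letters that basic helix-loop-helix factors such as Atoh1 can bind, searched on both strands.
Muc2 (chr7:141690090-141690339, plus strand): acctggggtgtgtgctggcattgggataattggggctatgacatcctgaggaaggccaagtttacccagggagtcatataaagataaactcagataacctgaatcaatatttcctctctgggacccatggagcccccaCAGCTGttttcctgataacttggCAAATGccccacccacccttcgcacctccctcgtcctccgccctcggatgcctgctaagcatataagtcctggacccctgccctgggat
Fcgbp (chr7:28070986-28071235, plus strand): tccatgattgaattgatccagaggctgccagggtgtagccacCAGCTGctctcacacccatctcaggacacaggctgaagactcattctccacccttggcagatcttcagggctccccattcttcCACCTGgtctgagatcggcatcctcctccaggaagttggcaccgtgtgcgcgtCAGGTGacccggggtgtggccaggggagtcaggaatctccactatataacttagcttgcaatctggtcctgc
Agr2 (chr12:35992675-35992924, plus strand): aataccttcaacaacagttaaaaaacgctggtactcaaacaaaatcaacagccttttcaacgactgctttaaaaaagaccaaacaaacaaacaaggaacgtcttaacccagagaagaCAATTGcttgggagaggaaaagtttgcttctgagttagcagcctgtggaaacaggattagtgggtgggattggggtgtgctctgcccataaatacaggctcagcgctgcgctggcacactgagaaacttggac

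Fcgbp holds 3 E-box matches, Muc2 2 and Agr2 1, and the windows of Spdef and Atoh1 hold 0. Of the 32851 mouse windows of this length in the RefSeq table, 66.2% hold at least 1 match, so that a match is common. Muc2 and Fcgbp share CAGCTG, which 13.0% of all windows hold. Both also carry TATAA, the core of a TATA box, at position -28 counted back from the start, and Spdef carries it at -27. This word was present on either strand in 22.8% of all windows. These are letter matches only, with no measure of binding.

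All 8 genes were expressed in each of the 18 organoid libraries, at levels that spanned more than 2 orders of magnitude. Levels are given as CPM (counts per 1000000 counts of the library) scaled by TMM factors, and for comparisons between genes as CPM per kilobase of merged exon. Per kilobase, the 9 libraries labelled untreated had a median of 634 for Tff3 (range 505 to 769), 395 for Spink4 (297 to 526), 99.2 for Agr2 (73.9 to 145.9), 84.0 for Fcgbp (70.8 to 112.8), 19.9 for Zg16 (5.31 to 39.3), 10.8 for Muc2 (7.67 to 15.6), 5.92 for Spdef (3.51 to 9.46) and 2.95 for Atoh1 (1.70 to 4.76). The ranges of Tff3 and Spink4 overlapped, as did those of Agr2 and Fcgbp, of Zg16 and Muc2, of Muc2 and Spdef, and of Spdef and Atoh1. The small peptides Tff3 and Spink4 thus stood at the top, and the 2 transcription factors at the bottom. On this scale the mucin itself was lower than the mucus proteins Fcgbp, Tff3 and Spink4 in every library labelled untreated.

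Among the markers of other epithelial cells in the organoid libraries labelled untreated, the 8 enterocyte genes summed to 1958 to 6235 CPM, the 10 Paneth cell genes to 429 to 1155 and the 6 enteroendocrine genes to 314 to 558. The Paneth cell list includes Guca2b, which alone had 120.4 to 601.1 CPM in these libraries. The 8 goblet cell genes summed to 1459 to 1942 CPM. The 4 immune markers summed to at most 0.645 CPM and the 7 fibroblast markers to 14.1 to 32.4 CPM. Counts on genes ranged from 6071103 to 43843615 over the 27 libraries. The lowest depths were 11440041 in the Z911 library labelled TNF-treated and 6071103 in the M1 library with that label.

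The first comparison asks whether independently established cultures differ in goblet cell genes beyond the difference between the 2 libraries of the same culture. They did for 6 of the 8 genes, Fcgbp, Zg16, Spink4, Muc2, Agr2 and Tff3, and the test passed for 12.0% of all 12104 genes tested. The secretory transcription factors Spdef and Atoh1 did not pass.

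Zg16 had the widest range of culture means, from 8.88 CPM in Z919 to 52.0 CPM in Z913, a 5.86-fold difference. In culture order from Z908 to Z919 its libraries labelled untreated had 25.0, 25.9, 6.68, 19.7, 12.6, 49.4, 32.4, 32.3 and 8.98 CPM, and those labelled TNF-treated 13.4, 19.0, 15.0, 20.8, 16.1, 54.7, 38.5, 30.5 and 8.79 CPM. Z913 was highest and Z919 low under both labels, whereas among the SR cultures Z908 and Z910 changed places. The difference between cultures passed edgeR's quasi-likelihood F-test with F = 11.5 and an adjusted p of 5.8e-06.

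Muc2 had, in the same order, 75.2, 54.6, 97.7, 74.1, 71.3, 81.8, 111.2, 104.5 and 77.0 CPM in the libraries labelled untreated. In those labelled TNF-treated it had 81.3, 74.1, 133.5, 38.0, 89.7, 71.3, 171.9, 107.7 and 77.6 CPM. The GF culture Z917 was highest under both labels, and the lowest value was that of the shallow Z911 library. Culture means ranged 2.53-fold, from 56.0 to 141.5 CPM, with F = 7.22 and an adjusted p of 0.00040 in edgeR's quasi-likelihood test. Without culture Z911, Muc2 still passed, as it did without each other culture.

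By culture means, Agr2 followed a like order. It had 128.0, 116.8, 144.6, 95.4, 131.3, 126.6, 188.3, 165.2 and 111.8 CPM in the libraries labelled untreated, and 153.2, 134.5, 194.8, 112.4, 167.0, 139.0, 226.8, 140.5 and 176.0 CPM in those labelled TNF-treated. As for Muc2, the lowest culture mean was that of Z911, the second lowest Z909, the second highest Z910 and the highest Z917. Agr2 culture means ran from 103.9 to 207.6 CPM. Under the label untreated alone, Muc2 was lowest in Z909 (54.6 CPM), with 74.1 CPM in Z911. Its second highest culture was then Z918 (104.5 CPM), above Z910 (97.7 CPM). The test gave F = 7.16 with an edgeR adjusted p of 0.00043, and without Z917 the adjusted p was 0.051.

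Fcgbp was the most abundant of the 8 genes in CPM and differed least between the 2 libraries of a culture. It had 882, 967, 824, 769, 1132, 743, 877, 1184 and 1079 CPM under the label untreated and 1074, 1030.2, 1027, 849, 1214, 741, 1017, 1286 and 1167 CPM under the label TNF-treated. Z913 was lowest and Z918 highest under both labels. The culture means differed 1.67-fold with the largest F of the 8 genes (15.7, adjusted p = 2.3e-07, edgeR), since the SD between the 2 libraries of a culture was only 0.0716 on the log2 scale.

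For the 2 small peptides, Spink4 culture means went from 132.1 CPM in Z908 to 235.0 CPM in Z910 (1.78-fold, F = 8.92, edgeR adjusted p = 6.9e-05). Tff3 went from 250.7 CPM in Z912 to 359.5 CPM in Z917 (1.43-fold, F = 4.21, edgeR adjusted p = 0.017). For Tff3 the call was lost without Z912 and without Z917, each with an adjusted p of 0.10.

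For the regulators, the 2 libraries of a culture differed by as much as the cultures did. Atoh1 had 5.97, 5.04, 8.09, 6.25, 8.39, 3.61, 9.42, 10.1 and 4.93 CPM under the label untreated and 5.68, 11.3, 4.60, 7.56, 6.20, 8.68, 11.6, 6.64 and 11.4 CPM under the label TNF-treated. Z913, the lowest untreated culture, was in the middle under the other label. The SD between the libraries of a culture was 0.564 and that of the culture means 0.275 (log2), with F = 0.377 and an edgeR adjusted p of 0.97. Spdef libraries lay between 8.08 and 21.8 CPM, with 0.444 and 0.257 for the same 2 SDs, F = 0.696 and an edgeR adjusted p of 0.84. Over all genes tested, the median SDs were 0.266 between the libraries of a culture and 0.237 between culture means. These are unlike measures, since the first is the SD of single libraries and the second that of means of 2 libraries. With no difference between cultures the second would be the smaller, so that equal SDs are not the reference.

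**Figure D1:**
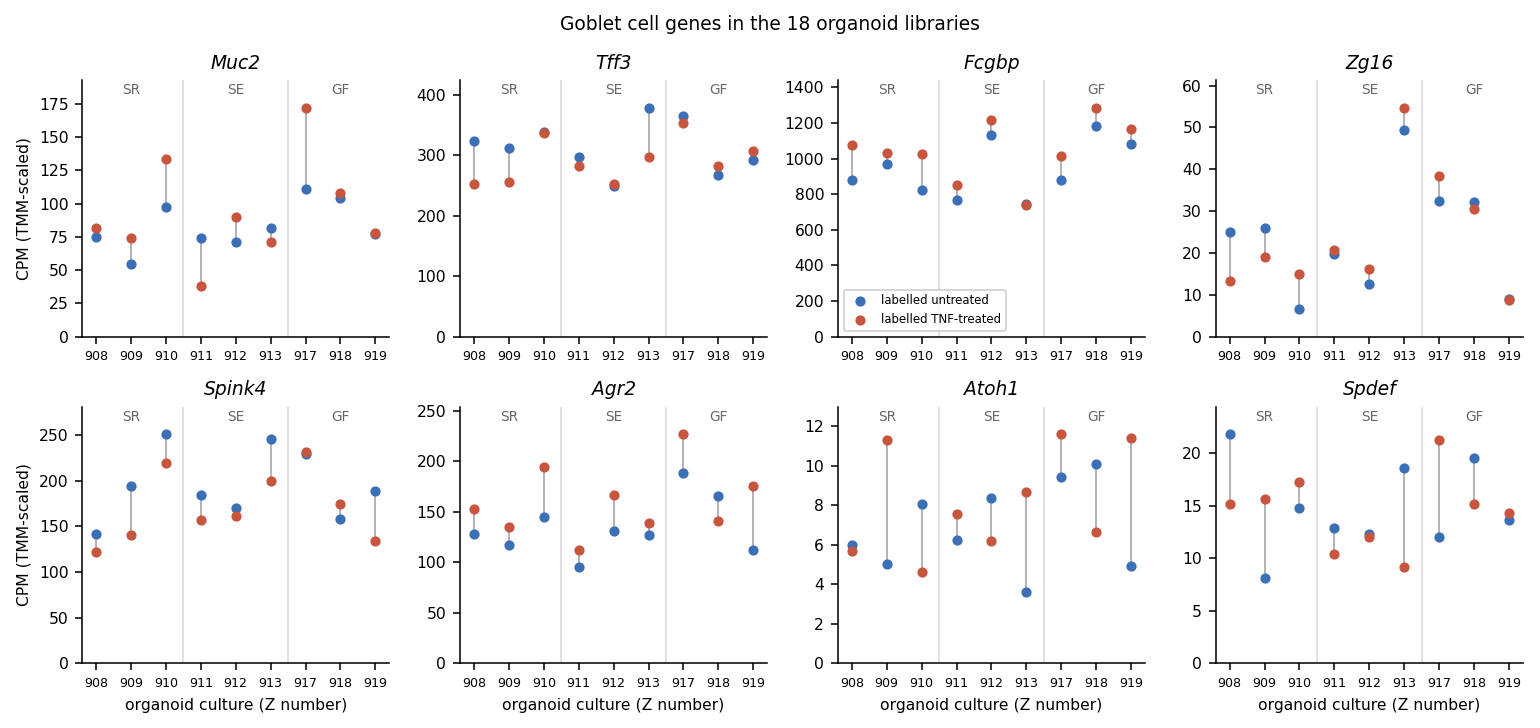
TMM-scaled CPM of the 8 genes (1 panel each, linear axes from 0) in the 9 organoid cultures, ordered by facility (SR, SE, GF). Blue points are libraries labelled untreated, red points those labelled TNF-treated, and a grey line joins the 2 libraries of a culture; Zg16 ranges from 8.88 to 52.0 CPM in culture means while the 2 points of Atoh1 and Spdef lie far apart within cultures.

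**Figure D2:**
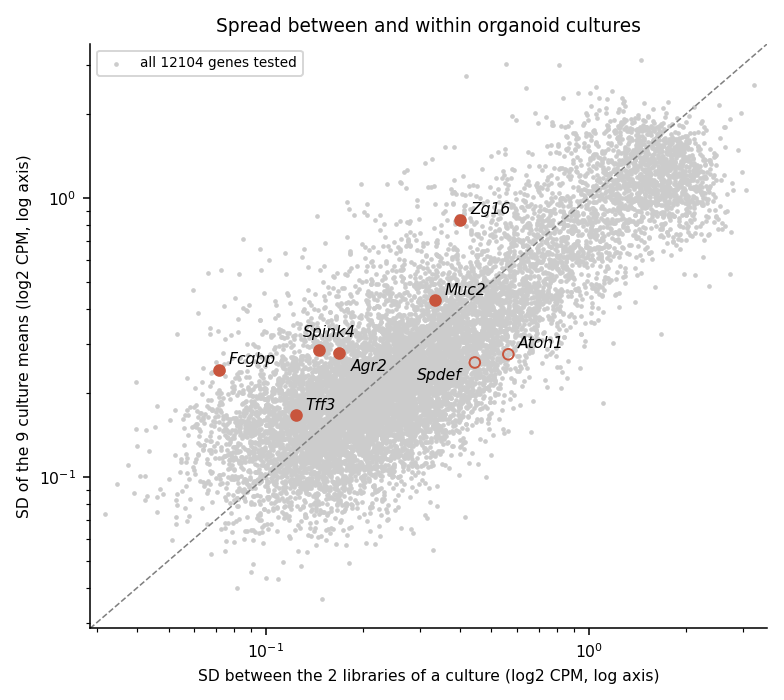
SD of the 9 culture means against the SD between the 2 libraries of a culture (log2 CPM with label means removed, both axes logarithmic) for the 12104 genes tested (grey) and the 8 goblet cell genes (red, filled where the difference between cultures passed). The 6 filled genes lie above the dashed line of equal SD and the open symbols of Spdef and Atoh1 below it. A culture mean averages 2 libraries, so that genes with no difference between cultures would be expected below this line.

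The 8 genes did not share 1 order of cultures. Over the 18 organoid libraries, log2 CPM of Muc2 had Pearson's r of 0.769 with Agr2 and 0.612 with Spdef, but 0.113 with Zg16 and 0.176 with Atoh1. Tff3 and Spink4 had r = 0.743 with each other, and r = -0.553 and -0.470 with Fcgbp. These values describe 18 libraries from 9 cultures and carry no test. Agr2 ranked 3 of 12103 genes by its r with Muc2, behind Mfap3 (0.899) and P3h1 (0.775). The other 8 of the 10 genes outside the goblet cell genes with the highest r were Champ1, Mut, Kmt2e, Dlc1, Pik3ca, 5330417C22Rik, Tdrd3 and Crebbp, with r from 0.730 to 0.767.

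Those 10 genes had a median merged exon length of 6188 bp against 4426 bp over 12065 genes tested with a length. The balance of long and short transcripts differed between libraries. The median level of the 1208 longest genes (at least 9791 bp) minus that of the 1207 shortest (at most 1741 bp), each gene centred over the 18 libraries, ran from -0.22 in the Z909 library labelled untreated to 0.17 in the Z918 library with that label (log2). With this long-gene level, r over the 18 libraries was 0.661 for Fcgbp, 0.439 for Muc2, 0.526 for Agr2, 0.664 for Atoh1, 0.222 for Spdef, -0.144 for Zg16, -0.140 for Spink4 and -0.337 for Tff3. Z912 and Z918, with the highest long-gene levels under the label untreated (0.16 and 0.17), had the highest Fcgbp and the lowest Tff3. When the long-gene level was a term of the fit, the same 6 genes passed between cultures, with F = 11.1 for Fcgbp, 5.23 for Muc2, 5.17 for Agr2 and 4.38 for Tff3, and edgeR adjusted p of 0.018 or less for each of the 6.

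**Figure D3:**
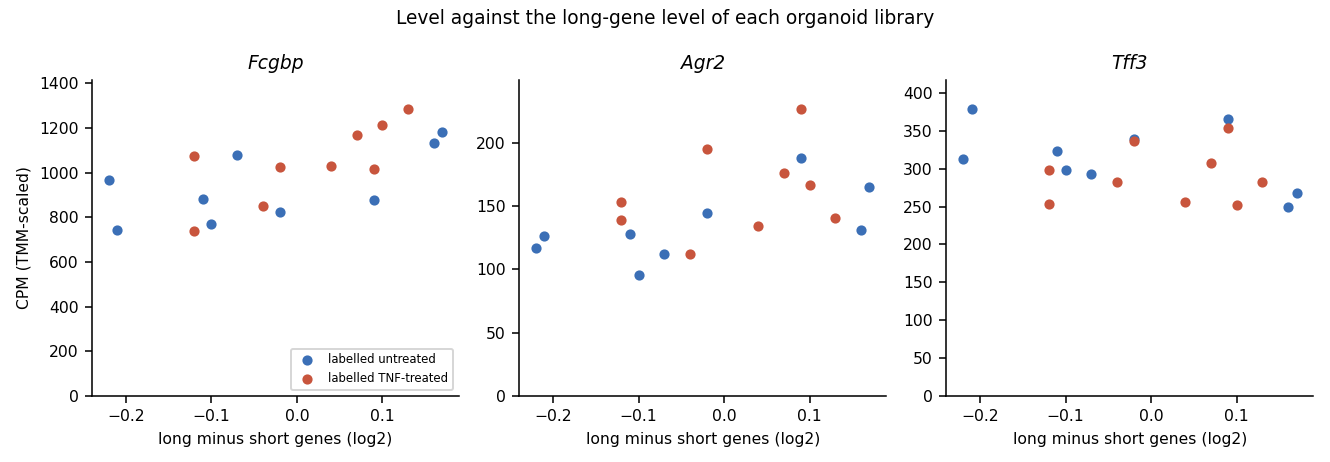
TMM-scaled CPM of Fcgbp, Agr2 and Tff3 (vertical axes from 0) against the long-gene level of each of the 18 organoid libraries (log2, median of the 1208 longest genes minus that of the 1207 shortest). Over these points r is 0.661 for Fcgbp, 0.526 for Agr2 and -0.337 for Tff3.

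Markers of several other lineages also differed between cultures, by the same edgeR test. All 8 enterocyte markers and all 5 stem cell markers passed. So did 2 of 6 enteroendocrine markers and 3 of 6 general epithelial markers. Of 8 genes tested from the Paneth cell list 4 passed (Itln1, Guca2b, Defa24 and Lyz1). Of the tuft cell markers 0 of 4 tested passed, and of the fibroblast markers 0 of 4. The summed enterocyte level ran from 1973 CPM in Z919 to 6383 CPM in Z918, with 6204 CPM in Z913, and the summed stem cell level from 992 CPM in Z913 to 2427 CPM in Z919. Z919 was thus lowest in both Zg16 and the enterocyte genes, and highest in the stem cell genes. The 8 goblet cell genes together ranged 1.36-fold, from 1468 CPM in Z911 to 1993 CPM in Z918. Fcgbp was the largest part of this sum, with 1235 CPM in Z918, whereas Zg16 alone ranged 5.86-fold and Muc2 2.53-fold. Whether cell composition has a part in the differences of single goblet cell genes was not tested.

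In the lists that surround mucus production, the counts are to be read beside the 12.0% of all genes that passed between cultures. Of the other goblet cell products, 2 of 17 tested passed: Guca2a, the peptide guanylin (115 CPM in Z919 to 395 CPM in Z913, edgeR adjusted p = 6.9e-10), and Clca1, a secreted mucus metalloprotease (0.760 CPM in Z908 to 20.2 CPM in Z913, edgeR adjusted p = 0.0022). Of the mucin O-glycosylation genes, 4 of 20 tested passed, namely the sialyltransferases St3gal4 and St3gal6, the core-branching enzyme Gcnt3 and B4galnt2. St3gal4 ranged from 180.2 CPM in Z919 to 425 CPM in Z918, and Gcnt3 from 23.1 CPM in Z918 to 65.2 CPM in Z917. Among the folding genes of the endoplasmic reticulum 4 of 26 passed (P4hb, Ero1l, Sec11c and Ero1lb), among the secretory lineage regulators 3 of 16 (Hes1, Foxa1 and Elf3), and among the granule release genes 0 of 12.

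The second comparison concerns the TNF label. Without a term for culture, 168 of 12104 genes (1.39%) passed between organoid libraries of the 2 labels (9 each), and 0 of the 8 goblet cell genes were among them. At an unadjusted p of at most 0.05, 8.86% of all genes passed, and Agr2 was the only 1 of the 8 genes among them, in edgeR as in DESeq2. Known targets of TNF signalling run against the labels: Nfkbia had 149 to 227 CPM under the label untreated and 23.7 to 36.6 CPM under the label TNF-treated, and Nfkb2, Tnfaip3, Relb and C3 were also lower in the library labelled TNF-treated in 9 of 9 cultures. The deposited names of the data also give the opposite treatment in each pair. Directions are therefore given by label only. The comparisons of facilities and of cell types below use libraries labelled untreated. In organoids these are the libraries with the higher levels of the TNF targets, so that they are not to be taken as resting cultures. Which treatment each library had was not tested.

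The 2 libraries of a culture come from 1 mouse, and with culture as a replicate block 397 genes passed. Higher under the label TNF-treated were 137 genes, 1.13% of those tested, and Agr2 and Fcgbp were 2 of them. Agr2 was higher in the library labelled TNF-treated in 8 of 9 cultures, the exception being Z918, with a log2 difference of 0.26 ± 0.07 (SE, edgeR adjusted p = 0.030). Fcgbp was higher in 8 of 9 cultures, with 743 against 741 CPM in Z913, and a log2 difference of 0.15 ± 0.04 (SE, edgeR adjusted p = 0.021). Without the block, the differences were the same in size and the edgeR adjusted p was 0.55 for Agr2 and 0.76 for Fcgbp.

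Both calls are near the threshold. In the fit with the replicate block, leaving out each culture in turn gave an adjusted p from 0.0045 to 0.14 for Agr2 and from 0.013 to 0.089 for Fcgbp (edgeR), and neither gene passed without Z910 (0.097 and 0.089) or without Z917 (0.065 and 0.055). Agr2 was also lost without Z909 (0.053), Z912 (0.089) and Z919 (0.14), and Fcgbp without Z908 (0.082). With the long-gene level added to the block, Fcgbp passed (0.17, edgeR adjusted p = 0.012) and Agr2 did not (0.23, edgeR adjusted p = 0.15).

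Of the other mucus products, Spink4 had 7 of 9 cultures lower in the library labelled TNF-treated (log2 difference with the replicate block -0.20 ± 0.06, SE, edgeR adjusted p = 0.087), and passed only when Z918 was left out (0.030). Muc2 was higher in 7 of 9 cultures, with log2 differences from -0.96 in Z911 to 0.63 in Z917, and a fitted value of 0.11 ± 0.11 (SE, edgeR adjusted p = 0.75). Tff3 was lower in 6 of 9 cultures (-0.10 ± 0.06, SE, edgeR adjusted p = 0.41). Zg16 had 0.05 ± 0.16 (SE, edgeR adjusted p = 0.94), with 5 cultures higher and 4 lower.

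For the regulators the intervals were wide. Atoh1 had a log2 difference with the block of 0.25 (95% confidence interval -0.37 to 0.87), and differences within cultures ran from -0.80 in Z910 to 1.25 in Z913. Spdef had -0.02 (-0.44 to 0.39), with differences from -1.03 in Z913 to 0.94 in Z909. These intervals include differences larger than those called for Agr2 and Fcgbp.

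**Figure D4:**
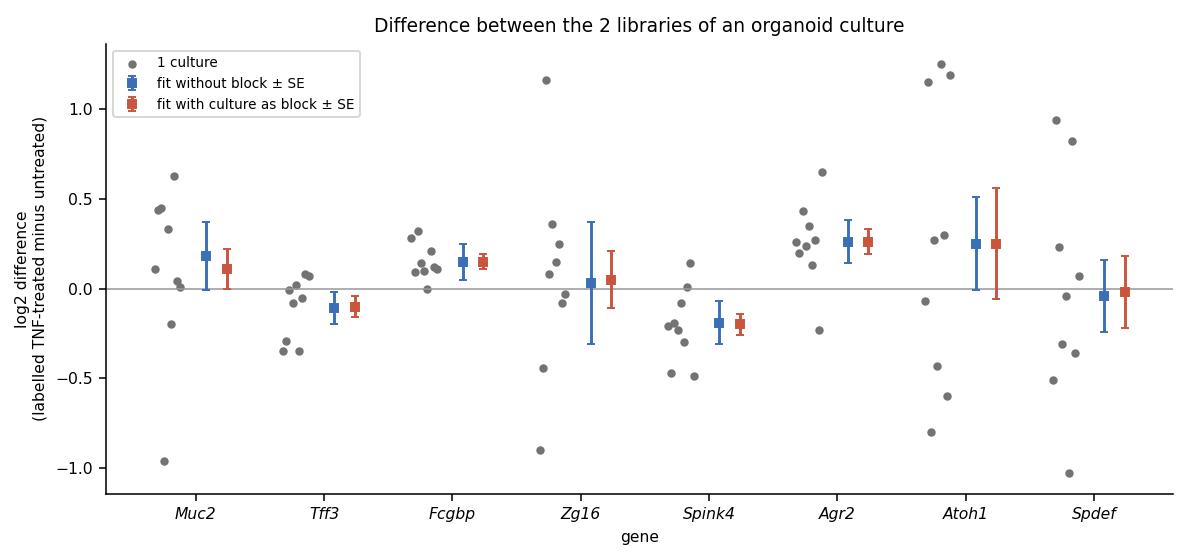
Log2 difference between the library labelled TNF-treated and the one labelled untreated, for each of the 9 organoid cultures (grey points) and as fitted by edgeR without (blue) and with (red) culture as a block (squares with SE bars). Agr2 and Fcgbp lie above 0 in 8 of 9 cultures and their red bars are short, while Atoh1, Spdef and Zg16 scatter on both sides of 0.

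Around these genes, the same paired fit, in which 3.28% of all genes passed, gave 3 of 20 mucin O-glycosylation genes, all higher under the label TNF-treated: Galnt7, which starts O-glycan chains (143 CPM on average under the label untreated and 191 CPM under the other, log2 difference 0.42 ± 0.06, SE, edgeR adjusted p = 1.6e-05), Gcnt4 (0.40, edgeR adjusted p = 0.0016) and St3gal4 (0.25, edgeR adjusted p = 0.0029). Of 17 other goblet cell products 2 passed, both lower: Guca2a (-0.71, edgeR adjusted p = 1.9e-10) and the chemokine Ccl9 (-1.15, edgeR adjusted p = 0.013). Of the 26 folding genes, Sec11c, a signal peptidase subunit, was lower (-0.39, edgeR adjusted p = 0.0054). Of 16 lineage regulators, Notch1 was lower (-0.28, edgeR adjusted p = 0.047) and Cbfa2t2 higher (0.43, edgeR adjusted p = 0.049), and 0 of 12 granule release genes passed. The list medians were 0.08 for the 8 goblet cell genes and 0.06 for the glycosylation genes, beside 0.01 over all genes. Markers of other lineages moved in the same fit. Of the 5 stem cell markers 2 were lower under the label TNF-treated, Olfm4 (-1.96, edgeR adjusted p = 5.7e-21) and Ascl2 (-1.74, edgeR adjusted p = 2.2e-09). Of the 8 genes tested from the Paneth cell list 2 were lower, Guca2b (-0.72) and Itln1 (-0.40). From that list Mmp7 (-0.54, edgeR adjusted p = 0.53) and Ang4 (-0.47, edgeR adjusted p = 0.64) did not pass. Of the 8 enterocyte markers Apoa1 was lower (-0.49) and Sis higher (0.20). None of the 6 enteroendocrine or 4 tuft cell markers tested passed, and the part of other lineages in these differences was not tested.

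The third comparison concerns the donors' microbiota. Between the 3 GF and the 6 SPF organoid libraries labelled untreated, 4 of 12315 genes (0.0325%) passed, and 0 goblet cell genes did. Muc2 averaged 97.6 ± 18.1 CPM in GF (SD, n = 3) and 75.8 ± 14.1 CPM in SPF (SD, n = 6), and Agr2 155 ± 39.2 and 124 ± 16.6 CPM. The groups overlapped for both genes, since Z919 lay within the SPF range. At an unadjusted p of at most 0.05, 3.99% of genes passed, and Muc2 was the only 1 of the 8 genes among them (log2 difference 0.37, 95% confidence interval 0.00 to 0.73, edgeR adjusted p = 1.0). Muc2 missed that unadjusted threshold in DESeq2, with the 2 libraries of a culture summed (log2 difference 0.40, -0.01 to 0.81) and in the libraries labelled TNF-treated (0.55, -0.04 to 1.14). The adjusted p of Muc2 ranged from 0.86 to 1.0 over the alternatives.

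The remaining intervals of the GF against SPF difference were -0.01 to 0.66 for Agr2, -0.05 to 0.54 for Fcgbp, -0.40 to 0.32 for Spink4, -0.33 to 0.26 for Tff3, -0.68 to 0.74 for Spdef, -0.58 to 1.36 for Atoh1 and -0.93 to 1.09 for Zg16 (log2). These intervals are for the libraries labelled untreated. In those labelled TNF-treated they were -0.08 to 0.41 for Tff3, -0.27 to 0.5 for Spink4, -0.79 to 1.11 for Zg16 and -0.32 to 1.18 for Atoh1. Under either label the intervals of Tff3 and Spink4 were narrower than those of Zg16 and Atoh1. The estimates of Tff3 and Spink4 changed sign between the labels (-0.04 and 0.17 for Tff3, -0.04 and 0.11 for Spink4). Facility, litter, cage and microbiota cannot be told apart, as the GF cultures share 1 facility and come from cohoused littermates. Litter and cage are likewise tied to facility for SR and SE.

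Between the SPF facilities SR and SE, 0 genes passed in edgeR, and at an unadjusted p of at most 0.05 there were 486 genes (3.98%), with 0 of the 8. DESeq2 called 8 genes. Zg16 had the largest fitted difference of the 8 (log2 -0.50, 95% confidence interval -1.58 to 0.57), with 6.68 to 25.9 CPM in SR and 12.6 to 49.4 CPM in SE. In the libraries labelled TNF-treated, the Zg16 difference was -0.96 (95% confidence interval -1.78 to -0.14, edgeR adjusted p = 1.0), and it was the 1 of the 8 genes with an unadjusted p of at most 0.05, which 3.47% of all genes had. Muc2 averaged 75.8 ± 21.6 CPM in SR and 75.7 ± 5.43 CPM in SE under the label untreated (SD, n = 3 each), and 96.3 ± 32.4 and 66.3 ± 26.2 CPM under the label TNF-treated, where its log2 difference was 0.52 (95% confidence interval -0.07 to 1.11). The difference of the TNF label effect between GF and SPF organoids was tested as an interaction, in a fit without a term for culture. With culture as a replicate block, 0 genes passed in edgeR and 465 had an unadjusted p of at most 0.05, with 0 of the 8. Tff3 then had an estimate of 0.21 (95% confidence interval -0.02 to 0.44). Without the block, the interaction passed for 0 genes in edgeR and for 1 in DESeq2. At an unadjusted p of at most 0.05 it passed for 323 genes (2.56%), with 0 of the 8, whose interaction estimates lay between -0.06 for Agr2 and 0.32 for Spdef (log2).

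The last comparison sets organoids against the reference cells. The goblet cell genes were far lower in m-ICc12 cells and MEFs, and Atoh1, Spdef and Zg16 had at most 3 counts in every library labelled untreated. Of the libraries labelled untreated, m-ICc12 cells had 0 counts of Atoh1 in 3 of 3 libraries, 1, 0 and 0 counts of Spdef, and 3, 0 and 0 counts of Zg16. MEFs had 1 count of Atoh1 in each library, 0, 0 and 1 of Spdef, and 1, 2 and 2 of Zg16. With a floor of 3 counts per library and the highest floor of the group, the organoid mean was at least 79.1-fold higher than m-ICc12 for Atoh1, at least 171-fold for Spdef and at least 273-fold for Zg16. Against MEFs the bounds were at least 60.0-fold, 130.0-fold and 207-fold higher, and at least 726-fold for Muc2, which had 2 to 3 counts.

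The abundant products were listed at low levels in the reference cells. Fcgbp had 2.52, 3.47 and 0.881 CPM in the m-ICc12 libraries labelled untreated and 1.32, 0.950 and 2.32 CPM in MEFs, against a mean of 939.7 ± 160.4 CPM in the organoids (SD, n = 9). This is 410-fold and 613-fold lower. Tff3 means were 624-fold lower in m-ICc12 and 726-fold lower in MEFs, those of Spink4 378.5-fold and 828-fold, and those of Agr2 347-fold and 443-fold. Muc2 was 223-fold lower in m-ICc12 cells, with 9, 35 and 4 counts. Library M2 carried the highest m-ICc12 values, with 0.289, 1.22 and 0.0476 CPM for Spink4 and 0.260, 0.782 and 0.119 CPM for Agr2 in M1, M2 and M3. Without M2 the folds were 1163 for Spink4, 707.5 for Agr2 and 467 for Muc2. Without the MEF library R3 the fold of Spink4 over MEFs was 1348, and the lower bounds rose to 91.5 for Atoh1, 198 for Spdef, 315 for Zg16 and 1107 for Muc2. Under the label untreated, Muc2, Tff3, Fcgbp, Agr2 and Spink4 stood in m-ICc12 cells at 0.16% (Tff3) to 0.448% (Muc2) of their organoid means. In MEFs Tff3, Fcgbp, Agr2 and Spink4 stood at 0.121% (Spink4) to 0.226% (Agr2). The other genes had at most 3 counts in each of these libraries, so that only the lower bounds apply to them. Carry-over between libraries was not tested.

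In edgeR's test all 8 genes were higher in organoids than in m-ICc12 cells, where 31.6% of 12962 genes were, and all 8 were higher than in MEFs, where 34.6% of 13144 genes were. Muc2, Zg16, Agr2, Spdef and Atoh1 passed the filter on low counts only through the organoid libraries, as did Spink4 against MEFs, so that the counts are not read as a result. Between m-ICc12 cells and MEFs 59.3% of genes passed, and 0 of the 3 goblet cell genes tested (Fcgbp, Tff3 and Spink4) did. The 6 epithelial markers summed to 2261 to 2748 CPM in m-ICc12 cells and 8.08 to 12.2 CPM in MEFs, beside 4753 to 5806 CPM in the organoids. The 7 fibroblast markers summed to 1833 to 2982 CPM in m-ICc12 cells and 5753 to 6919 CPM in MEFs. Of these, Col3a1, Pdgfra, Pdgfrb and Thy1 had at most 3 counts in each m-ICc12 library. All these sums are for libraries labelled untreated.

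Between the labels of the m-ICc12 cells 13 genes (0.11%) passed, and 0 of the 4 goblet cell genes tested (Muc2, Tff3, Fcgbp and Spink4) did. Fcgbp had 10.0, 2.02 and 2.10 CPM under the label TNF-treated, where the high value is that of M1, the library with the fewest counts in the series. Of the 16 other goblet cell products tested, 14 were higher in organoids than in m-ICc12 cells and 2 lower. Over all 12962 genes tested, 4100 were higher and 3799 lower. Of the 19 products listed, 11 had at most 3 counts in every m-ICc12 library labelled untreated. Those of them that were tested passed the filter only through the organoid libraries, so that the 14 are not read as a result. Sytl2, which tethers secretory granules to the membrane, had 174 CPM on average in the m-ICc12 libraries labelled untreated (130.2 to 234, n = 3) against 8.20 CPM in the organoids (5.39 to 10.4, n = 9). Hgfac, a secreted serine protease, had 69.6 CPM (54.1 to 85.5, n = 3) against 8.98 CPM (0.533 to 17.1, n = 9). In libraries labelled untreated, the 19 other goblet cell products, Sytl2 included, summed to 208 to 294 CPM in m-ICc12 cells and to 15.8 to 21.4 CPM in MEFs, beside 345 to 767 CPM in the organoids.

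**Figure D5:**
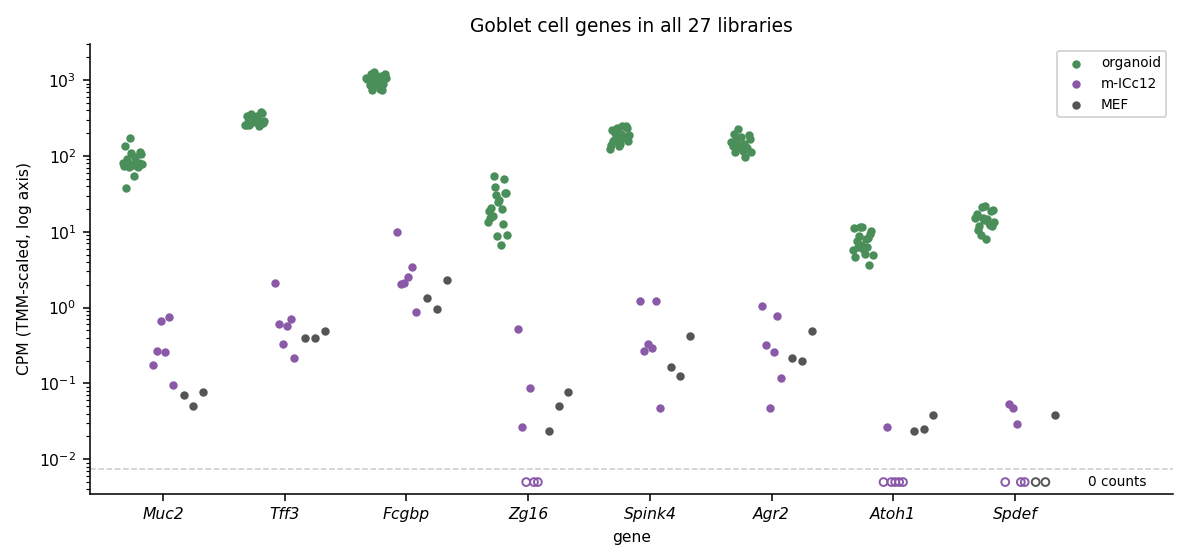
TMM-scaled CPM (log axis) of the 8 goblet cell genes in the 18 organoid (green), 6 m-ICc12 (purple) and 3 MEF (grey) libraries, both labels together; open symbols under the dashed line are libraries with 0 counts. For each gene all organoid libraries lie above all m-ICc12 and MEF libraries, and Atoh1, Spdef and Zg16 have libraries with 0 counts.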

How the data were processed

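Per the labels and the study's methods, polyA-enriched RNA was sequenced as single-end reads, which the authors trimmed, aligned to GRCm38 with STAR and counted per gene. The deposited values are these whole-number counts, without normalization. The submitters' processing notes name featureCounts and STAR 2.5.4b, while the study's methods name GenomicRanges, and whether strand was used is not given in the sources used here, so that Zg16 counts could hold reads of its overlapping genes.

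Conditions follow the labels. A gene entered a test when 50% or more of the libraries in 1 group held 10 or more counts, and testing was done with edgeR 4.0.16 (TMM, quasi-likelihood F-test, R 4.3.3), Benjamini-Hochberg adjusted over all genes tested and called under 0.05. Intervals use the fit's t quantile. Log2 CPM used a prior count of 2. DESeq2 1.42.0 was an alternative. The 2 libraries of an organoid culture share a mouse, and their deviations from label means had r = 0.171 on average (0.0820 to 0.310) against -0.020 for libraries of different cultures. Totals of 6071103 to 43843615 counts put a floor of 3 counts at 0.0651 to 0.519 CPM. Floors cover counting error only. Exon lengths are GENCODE vM21.

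The members and lists were chosen with earlier results of these data known, and the fits with the long-gene level and the block without single cultures were added after seeing the data. All 8 genes are named in every comparison, with up to 4 genes of each list by smallest p. Sytl2 and Hgfac were named in the m-ICc12 comparison after their values were seen. The tests were checked on simulated data.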

Additional observations from a re-analysis of the deposited data

Results flagged for a closer look

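Among 32 groups of 6 or 9 organoid libraries examined gene by gene, 1 value stood apart from the rest of its group by Dixon's criterion. In the 6 libraries labelled TNF-treated from SPF donors, Zg16 had 54.7 CPM in culture Z913, and its gap to the next library was 0.821 of the range of the group. Chance alone sets apart about 1 in 20 groups by this criterion.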

How the results depend on the processing

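Between cultures, the 8 goblet cell genes gave 6 calls under DESeq2, without the low-count filter, with RLE factors and with the long-gene level, 5 without the treatment label in the fit, and 4 to 6 when single cultures were left out (5 without Z912, 4 without Z917). Under the TNF label, 0 of the 8 were called without the block, 2 with culture as a replicate block, 1 with the block and the long-gene level, and 0 to 3 when single cultures were left out with or without the block (0 without Z910 or Z917, 3 without Z918, when Spink4 joined). The m-ICc12 libraries share only a number (r of paired deviations 0.031 on average), and the replicate block there left 0 goblet cell genes called. For GF against SPF, SR against SE and the interaction, each alternative run gave 0 calls among the 8, as without any change. All 8 were called against both reference cells under every alternative run. Without any change, 31.6% of all genes tested were called higher in organoids against m-ICc12 cells and 34.6% against MEFs. As most of the 8 passed the low-count filter only through the organoid libraries, these calls are not read as a result. Over all single-gene values, 927 stayed on their side of the threshold, 14 passed it and 4 lost it under an alternative. The sign changed in 69 of 833 log2 differences, 0 of them called in either fit, among them Muc2 between SR and SE in 8 of 11 alternatives, and Spdef and Zg16 for the organoid TNF label in 7 and 5 of 24.

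Counts over all genes moved more. For the organoid TNF label they were 168 without and 397 with the block, 271 with the block and the long-gene level, 352 at the study's thresholds (unadjusted p of at most 0.05, log2 fold change of at least 0.5), and 136 to 376 with cultures left out, with or without the block. For the m-ICc12 label they were 46 in DESeq2, 30 without the filter, 6 with the block, 445 at the study's thresholds and 15 to 93 with 1 culture left out (93 without M2). GF against SPF gave 21 in DESeq2, 7 with summed libraries, 313 at the study's thresholds and 2 to 5 with 1 culture left out. SR against SE gave 8 in DESeq2, 5 without the filter, 1 each with RLE factors, exchanged labels and summed libraries, 376 at the study's thresholds and 0 to 35 with 1 culture left out (35 without Z909). Between cultures, DESeq2 called 2556 genes, the fit without the label 829, and 2881 had an unadjusted p of at most 0.05. The interaction gave 1 in DESeq2 and 273 at the study's thresholds. The causes of these shifts were not tested. Depth limits Atoh1, Spdef and Zg16 in the reference cells, where their counts were at or under 3.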
